A study of Homo sapiens with 6 samples.

Results

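GSX2, a homeodomain transcription factor of the progenitors of the lateral ganglionic eminence (LGE, a ventral part of the embryonic forebrain whose progenitors form striatal projection neurons and interneurons of the olfactory bulb), was found in these data at 238 places where 3 or more bound regions stood close together. Those 238 dense clusters held 852 of the 7105 regions bound in at least 2 of 3 replicates, which is 12.0% (95% Wilson interval 11.3 to 12.8). The clusters were chosen by the positions of the peaks themselves: peak intervals of the 3 replicates that overlapped by at least 1 bp were merged into 15743 regions on chromosomes 1 to 22 and X, the 7105 regions with peaks of at least 2 replicates were kept, and a cluster was any run of at least 3 kept regions in which each neighbouring pair of summits lay no more than 50 kb apart. The members were therefore selected on measured values, so their spacing, their peak strength and the number of replicates behind them are given as descriptions and were not tested.

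All 3 libraries came from H9, an established human embryonic stem cell line, that carried a doxycycline-inducible transgene (TRE3G promoter) for wild-type human GSX2 with a 2xFLAG tag. The cells were differentiated towards the LGE in Essential 6 medium with LDN193189, SB431542 and XAV939 and later with IWP2 and Activin A, doxycycline was added at 100 ng/mL for 12 h, and chromatin was collected at day 10.5 for ChIP-seq with the M2 antibody against FLAG. The binding measured is thus that of the tagged, induced protein in 1 line, and 3 input libraries and any line without the transgene were not analysed here. The labels do not say whether the 3 ChIP replicates were separate cultures, so the spread between them may be technical. The peak lists hold positions and peak strength and no expression values, so the LGE identity of the cells was not checked against marker genes, and read depth is unknown. The 3 lists held 9859, 7471 and 9122 peaks on the chromosomes used, so that the list of replicate 2 was the shortest.

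Homeodomain proteins read short AT-rich DNA sequences built on the core TAAT, which are frequent in the genome. Genes that control development often have many regulatory elements spread over a large stretch of DNA around and inside them, and a factor can bind several of these at once. GSX2 is known to act largely as a repressor in LGE progenitors, where it restrains genes of neighbouring territories such as the pallium. A bound region is a place of contact and does not by itself say that the nearest gene is controlled from it.

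A few clusters reach a promoter whose sequence could be read, and 4 of these are shown because they carry the core at a gene of forebrain patterning or signalling. They are the 250 bases before the start site in RefSeq (GRCh38.p14), 5′ to 3′ on the gene's strand, with each TAAT on either strand (TAAT or ATTA) in capitals. EMX2 (a homeobox gene of the dorsal forebrain) is at chr10:117542496-117542745 on the plus strand, MSX2 (a homeobox gene of the dorsal midline) at chr5:174724332-174724581 on the plus strand, TCF7L2 (a transcription factor of the Wnt pathway) at chr10:113126383-113126632 on the plus strand, before a start inside the gene (chr10:112950247-113167678), and DUSP6 (a phosphatase that dampens FGF signalling) at chr12:89352502-89352751 on the minus strand.
EMX2: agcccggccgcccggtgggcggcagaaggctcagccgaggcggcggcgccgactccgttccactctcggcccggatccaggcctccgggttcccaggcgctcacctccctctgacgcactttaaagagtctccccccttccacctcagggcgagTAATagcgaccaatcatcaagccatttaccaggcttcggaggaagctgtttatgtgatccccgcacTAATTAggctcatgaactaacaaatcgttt
MSX2: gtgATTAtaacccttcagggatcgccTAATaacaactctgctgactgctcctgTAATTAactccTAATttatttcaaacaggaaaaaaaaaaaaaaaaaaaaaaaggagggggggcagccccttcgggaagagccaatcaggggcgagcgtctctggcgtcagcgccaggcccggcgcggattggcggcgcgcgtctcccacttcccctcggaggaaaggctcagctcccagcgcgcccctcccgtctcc
TCF7L2: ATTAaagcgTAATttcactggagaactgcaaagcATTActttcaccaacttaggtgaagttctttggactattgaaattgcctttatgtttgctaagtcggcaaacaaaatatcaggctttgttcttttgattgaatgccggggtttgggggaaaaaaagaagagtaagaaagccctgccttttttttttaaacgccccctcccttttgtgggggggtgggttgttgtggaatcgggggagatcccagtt
DUSP6: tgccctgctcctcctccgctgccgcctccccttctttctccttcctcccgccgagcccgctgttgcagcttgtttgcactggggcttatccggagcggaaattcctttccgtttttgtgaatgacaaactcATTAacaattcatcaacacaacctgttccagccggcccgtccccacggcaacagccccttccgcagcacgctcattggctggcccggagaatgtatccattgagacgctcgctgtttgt
The stretch before EMX2 holds 3 cores, 2 of which overlap in the palindrome TAATTA, and a member summit lay 58 bases before the start. Fold enrichment there was 9.55 in replicate 1 and 11.2 in replicate 2, and replicate 3 had no peak. MSX2 has 5 cores, a TAATTA among them, and its member summit was 220 bases before the start, with 10.9, 13.3 and 9.37 in replicates 1, 2 and 3. TCF7L2 shows 3 cores in this stretch, and the summit 242 bases before this start had 9.45, 7.60 and 10.9. DUSP6 has 1 core, yet its region, with the summit 128 bases before the start, was the strongest of the 4 at 12.6, 15.8 and 18.2 (mean 15.6 ± 2.83, SD, n = 3). The number of cores and the peak strength thus did not follow the same order in these 4 promoters.

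Across the RefSeq promoter windows of 300 bases (250 before the start to 50 after it), 19 windows of 18 genes held a member summit. The core TAAT, on either strand, was present in 17 of the 19 (89.5%), the palindrome TAATTA (which contains TAAT and its reverse complement ATTA) in 4 (21.1%), and 2 cores separated by 7 bases in 4 (21.1%). Among 243 windows with a kept summit outside the clusters, TAAT was in 89.3% and TAATTA in 19.8%. The pair 7 bases apart was in 17 of these 243 windows (6.996%). Over all 34789 windows the shares were 50.3%, 4.86% and 1.62%. Bound windows were lower in GC, at a median of 51.7% for the members and 56.0% for the other bound windows against 58.7% over all, and the part of base composition in these shares was not tested. In TAAT and TAATTA content the clustered promoters therefore lay within 2 percentage points of the other bound promoters. The share with the pair was higher in the clustered promoters, 21.1% against 6.996%, but it rests on 4 windows and was not tested. Some of the 19 windows overlap each other, and a match is a description of the letters, not a binding site.

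Most clusters were small. There were 166 clusters of 3 regions, 39 of 4, 12 of 5, 15 of 6, and 2 each of 7, 8 and 9. From the first summit to the last, a cluster spanned a median of 44.7 kb (quartiles 25.8 and 66.5 kb), with 2.04 kb for the shortest and 178 kb for the longest, and all spans together covered 11.7 Mb. Within the clusters the 614 steps between neighbouring summits had a median of 15.8 kb, against 217 kb between neighbours over all kept regions. Short steps were the most frequent: 164 were under 5 kb, 71 were 5 to 10 kb, and each later 5-kb bin up to 50 kb held 39 to 59. At the short end, 32 steps were under 1 kb, the smallest 0.589 kb.

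At the 50-kb limit, the largest step inside a cluster was 49.93 kb and the nearest step left out was 50.02 kb. Among all kept regions 91 steps fell between 45 and 50 kb and 87 between 50 and 55 kb, so the limit does not sit at a gap in the spacing. With a limit of 25 kb there were 116 clusters of 401 regions, and with 100 kb there were 497 of 1868. The replicates mattered as much: keeping regions of both remaining replicates gave 97 clusters without replicate 1, 131 without replicate 2 and 102 without replicate 3. Leaving a replicate out makes the rule stricter, because a region then needs peaks of both remaining replicates.

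**Figure D1:**
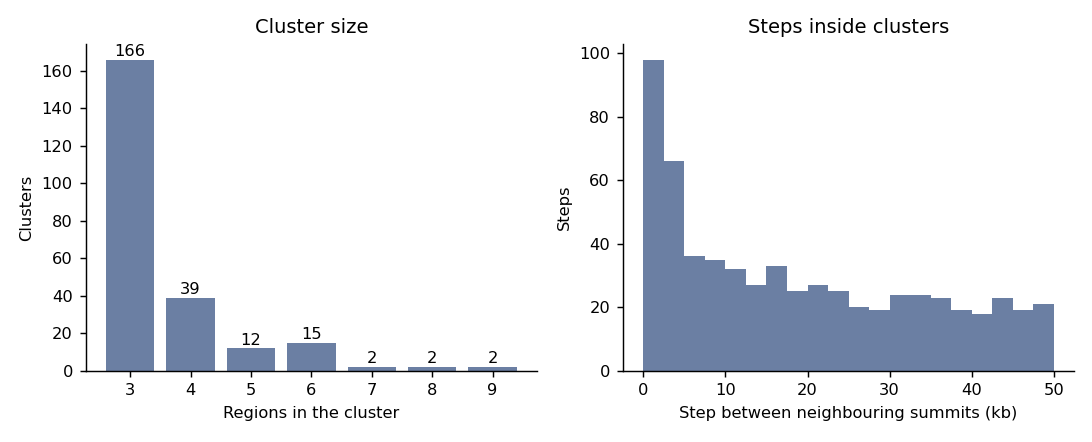
Left, number of clusters (y axis) by number of regions in the cluster (x axis), as bars from 0 with the count above each. Right, number of steps (y axis) by distance between neighbouring summits inside clusters in kb (x axis). Clusters of 3 regions are the most frequent, 166 of 238, and steps of a few kb outnumber those of any other length.

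The clusters lay on 22 chromosomes. Chromosome 5 had the highest share of its kept regions in clusters, 98 regions or 18.5%, followed by chromosome 10 with 18.0%, chromosome 7 with 17.8%, chromosome 17 with 17.0% and chromosome 3 with 16.04%. The lowest shares with any cluster were 4.95% on chromosome 18 and 5.03% on chromosome 16. None of the 57 kept regions of chromosome 21 was in a cluster. The upper Wilson limit there, 6.31%, treats regions as independent. Since regions enter a cluster at least 3 at a time, that limit is too low.

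The genes with most member regions were of several kinds. Each region was given its nearest protein-coding gene in the RefSeq annotation, a gene that contains the summit being at distance 0. ZNF608, a zinc finger gene, had 18 member regions in 4 clusters, out of 27 kept regions. SOX2, a factor of neural progenitors and pluripotent cells, had 14 of 18 in 3 clusters, and EMX2 had all of its 11 in 2 clusters. Next came CADPS2, a regulator of vesicle release, with 10 of 11, then GLI3, the transcription factor of the Hedgehog pathway that patterns the dorsal and ventral forebrain, with 9 of 11, and OTX2, a head organiser and forebrain homeobox gene, with 9 of 9. SOX5, FANCL, TMEM161B and DACH1 had 8 each, and ADGRL2, TLE4 and NR2F2 had 7 each. The gene counts differ in how firmly the replicates carry them: all 9 GLI3 regions had peaks in all 3 replicates, while 7 of the 14 SOX2 regions and 2 of the 8 TMEM161B regions did.

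OTX2 had 1 of the largest clusters, 9 regions over 159 kb at chr14:56805800-56965183. One region was inside the gene and the other 8 extended to 155 kb from it. The strongest, 92.9 kb from the gene, had 13.4, 14.7 and 14.5 in replicates 1, 2 and 3 (14.2 ± 0.69, SD, n = 3), and the weakest had 6.69, 4.89 and 5.10. These 2 were picked as the highest and lowest of the 9 by these same values. Without replicate 1 the number of OTX2 regions in clusters fell from 9 to 5, without either of the others it was 8, and where peaks had to reach a −log10 q of 10 it was 0.

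The other cluster of 9 regions ran over 74.7 kb at chr7:122309343-122384362, with 3 regions nearest to FEZF1, a zinc finger repressor of the early forebrain, and 6 inside CADPS2. Its strongest region, 1.84 kb from FEZF1, had 20.6, 21.3 and 27.5. A further CADPS2 cluster had 4 regions in only 5.06 kb at chr7:122434051-122439396, the shortest span of any cluster of at least 4 regions. With a step limit of 100 kb, both joined into 1 run of 13 regions over 130 kb.

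SOX2 had no member inside the gene. The main cluster held 7 regions over 40.6 kb at chr3:181700620-181742097 and contained the gene's strongest region, 3.75 kb away, with 28.2, 24.1 and 34.6 (29.0 ± 5.28, SD, n = 3). A cluster of 4 lay at chr3:181561196-181631592 and another of 3 as far as 524 kb away, at chr3:182220356-182238481. Away from the strongest region the array was weak, with a median of 6.85 in the main cluster. It depended on every replicate: SOX2 had 9, 5 and 6 regions in clusters without replicate 1, 2 and 3, instead of 14.

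**Figure D2:**
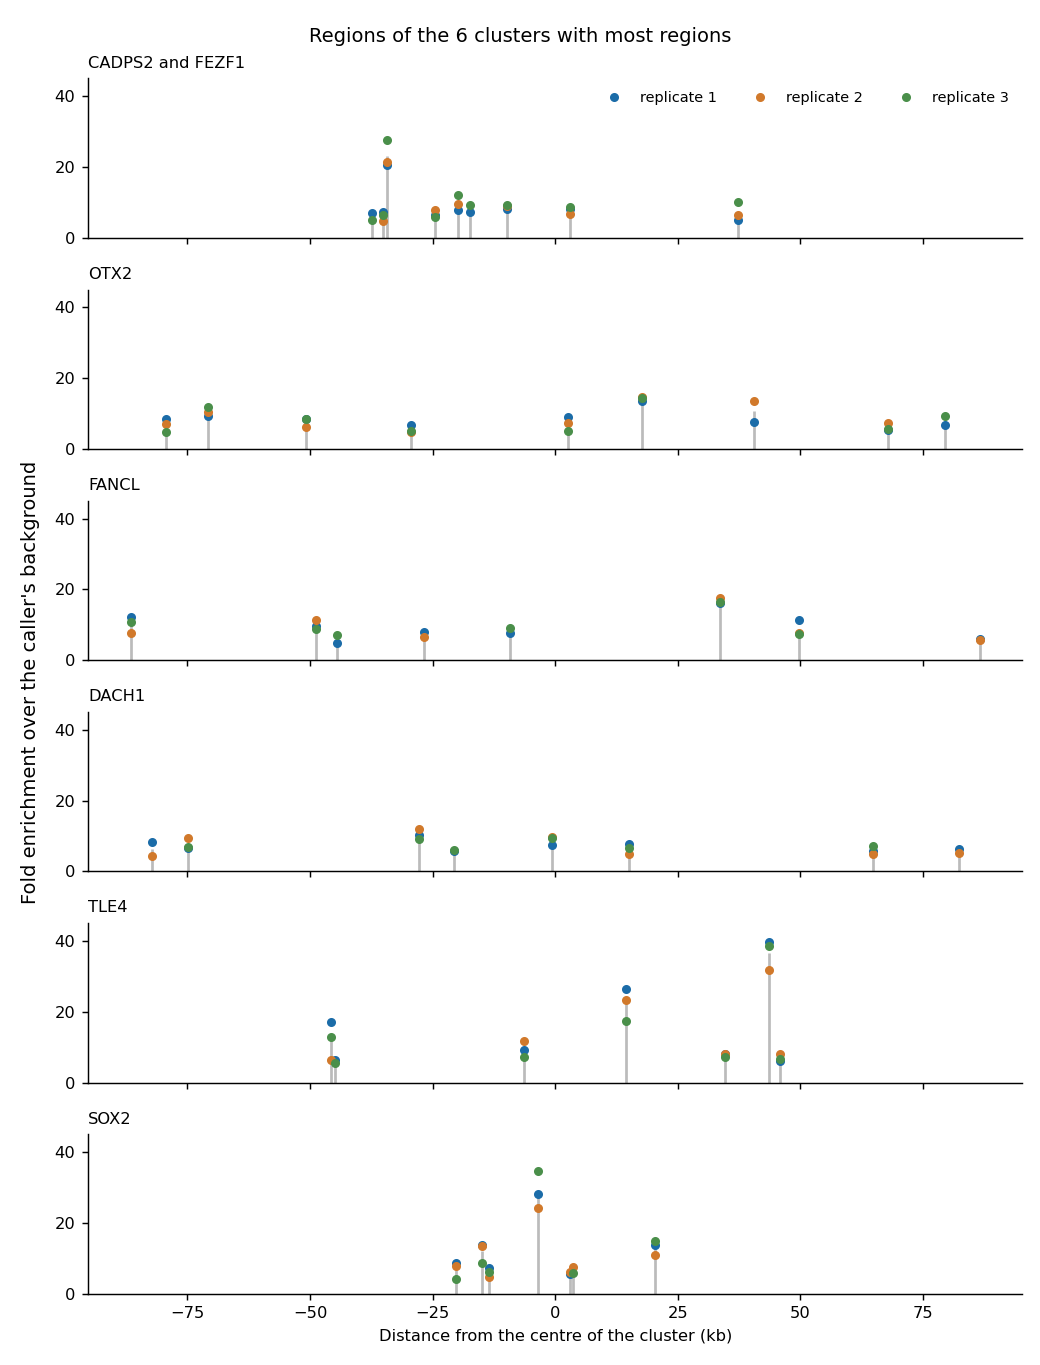
Regions of the 6 clusters with most regions, by distance of the summit from the centre of the cluster in kb (x axis) and fold enrichment (y axis). Each point is 1 replicate with a peak and each grey line ends at the mean of the replicates. TLE4, SOX2 and the cluster of CADPS2 and FEZF1 each have a region that stands above its neighbours in every replicate, at means of 36.7, 29.0 and 23.1. FANCL also has a region that leads in every replicate, at a mean of 16.7. The highest region means of OTX2 and DACH1 are 14.2 and 10.4.

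TLE4, a Groucho-family corepressor that many homeodomain repressors recruit, carried the strongest region of all members, ranked 7 among the 7105 kept regions. Its 7 regions spanned 91.6 kb at chr9:79570988-79663079, with 6 inside the gene and the other 0.754 kb outside. The strongest, at chr9:79660237-79660945, had 39.8, 31.8 and 38.5 in replicates 1, 2 and 3 (36.7 ± 4.26, SD, n = 3), and the next had 26.4, 23.3 and 17.3. The other 5 had means from 5.97 to 12.1, and their highest value in any replicate was 17.0. The array thus held 2 strong regions among weaker ones, and no replicate of the weaker ones reached the lowest value of the 2. With any replicate left out, TLE4 had 6 or 7 regions in a cluster.

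Inside GLI3, 6 regions over 82.4 kb at chr7:42152272-42235772 and 3 over 39.1 kb at chr7:42052587-42092190 were all carried by all 3 replicates. Their mean fold enrichment ran from 8.01 to 18.5, and the medians of the 2 clusters were 11.5 and 13.6, above the 8.06 of all members. The strongest had 20.6, 11.5 and 23.6 (18.5 ± 6.30, SD, n = 3), replicate 2 being the low one. GLI3 had 9 regions in clusters when any replicate was left out and when peaks had to reach a −log10 q of 10, and 5 with a step limit of 25 kb.

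Of the 6 regions over 68.8 kb at chr10:117501280-117570352 and the 6 over 73.5 kb at chr10:117730873-117804730, 11 were nearest to EMX2 and 1 to RAB11FIP2. The mean values at EMX2 lay between 6.46 and 12.5. The strongest region, 1.37 kb from the gene, had 9.95, 14.9 and 12.6 (12.5 ± 2.46, SD, n = 3). Beside GLI3 this is a weaker array, and the count fell to 4 without replicate 2 and to 5 without replicate 3, against 10 without replicate 1.

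At the GSX2 gene itself (chr4:54100163-54102498 in the annotation) 3 regions lay within 3.15 kb at chr4:54098407-54101918, and their median of 16.3 was the highest of any cluster. The region 1.56 kb outside the gene had 10.7, 14.0 and 12.2, the first inside it had 13.3, 15.5 and 20.2, and the second inside it had 21.5, 50.9 and 25.2 (32.5 ± 16.01, SD, n = 3). The last was the highest of the 3 in every replicate, and its value in replicate 2 stood far above those in the others. The transgene carries GSX2 coding sequence as well, so reads of the transgene and of the gene could fall together in the 2 regions inside it, and the part of this in their values was not tested. With any replicate left out the gene still had 3 regions in a cluster.

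Other genes of dense binding are described by their place and strength. LMO4, a LIM-only transcription cofactor, had 6 regions over 18.3 kb at chr1:87329790-87348627, all inside the gene and 5 of them in all 3 replicates. The strongest had 20.5, 10.0 and 11.4, so that replicate 1 stood apart from the others. UNCX, a homeobox gene, had 6 over 23.6 kb at chr7:1224382-1248364, between 1.66 and 10.8 kb from the gene, and its strongest had 15.1, 13.0 and 14.4. FANCL, a DNA repair gene, is only the nearest gene to 8 regions that lay 256 to 429 kb away at chr2:58496927-58671049, whose strongest had 16.3, 17.6 and 16.3 (16.7 ± 0.75, SD, n = 3). Without replicate 1 no region there was in a cluster. DACH1, a transcriptional corepressor, had 8 over 165 kb at chr13:71705389-71870238, 7 of them inside the gene and none past 10.4. Without replicate 1, DACH1 had 5 regions in clusters and UNCX 3. GSE1, a chromatin-associated protein, had 6 over 88.5 kb at chr16:85538068-85627035, with a median of 10.4, and only 3 in a cluster without replicate 1 or without replicate 3.

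ZNF608 had 4 clusters of 5, 4, 6 and 3 regions, with 7 of the 18 regions inside the gene and the rest as far as 664 kb from it. Mean fold enrichment ran from 5.97 to 12.8, and the strongest region had 11.1, 11.6 and 15.8. With steps of up to 100 kb, a run of 14 kept regions at chr5:124632163-125005666, which joined 2 of the 4 clusters, was the largest of all. Of the 18 regions, 9 had peaks in all 3 replicates.

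The longest cluster was that of GTF2F2, a subunit of a general transcription factor, with 6 regions over 178 kb at chr13:45102692-45281230 and 2 of them in all 3 replicates. One region 17.4 kb from the gene had 16.3, 24.7 and 23.2, and the median of the 6 was 6.76. This cluster was lost when any of the 3 replicates was left out. At the dense end, after CADPS2, 4 regions stood within 7.19 kb at NFE2L3, 7.47 kb at CITED2, 7.88 kb at ARRDC3 and 7.97 kb at FZD8, a Wnt receptor. The 4 regions named for NFE2L3 lay 392 to 400 kb from that gene. Of these the ARRDC3 cluster had all 4 regions in all 3 replicates, the CITED2 cluster 1. CITED2 had no region in a cluster without replicate 1 or without replicate 2, and NFE2L3 none without replicate 1. FZD8, nearest to 2 of its 4 regions, had 1 in a cluster without replicate 1 or replicate 3.

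Clusters of high median strength, after GSX2, were MACF1 with 15.7 (4 regions over 104 kb, all in all 3 replicates), the cluster of CRYBG1, QRSL1 and RTN4IP1 with 14.2, the smaller GLI3 cluster with 13.6 and MED13L with 13.5. MACF1 encodes a protein that links microtubules with actin, and MED13L a subunit of the Mediator complex. The strongest MACF1 region had 14.3, 15.4 and 29.1, with replicate 3 well above the others. CRYBG1 had no region in a cluster without replicate 1 or without replicate 2. These medians compare with 8.06 over all members.

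Other strong single regions stood well above their neighbours. Beside EXOSC2, a subunit of the RNA exosome, and PRDM12, a zinc finger gene of sensory and spinal progenitors, 1 region had 39.6, 31.6 and 32.8 (34.7 ± 4.32, SD, n = 3) and made up 66.3% of the summed strength of its 3-region cluster. In the 6-region cluster of CADPS, FEZF2 and CEP15 at chr3:62336457-62451538 the top region, inside CADPS at chr3:62415415-62416555, had 36.6, 25.8 and 37.9. The 2 regions nearest to FEZF2, a factor of forebrain patterning and of deep-layer cortical neurons, were weaker, the stronger having 13.8, 9.13 and 13.6. Near NEUROG1, a proneural gene of the pallium, a region assigned to TIFAB had 26.8, 36.2 and 16.9 (26.6 ± 9.67, SD, n = 3), while the 2 regions assigned to NEUROG1 had means of 5.79 and 8.93. MYO10 with 28.0, 20.2 and 26.4 and SMIM23 with 18.7, 25.6 and 29.0 complete the 10 strongest members together with 2 regions of TLE4 and 1 each of GSX2, SOX2 and FEZF1. MYO10 had no region in a cluster when any of the 3 replicates was left out, and SMIM23 and NEUROG1 had none without replicate 1 or without replicate 3.

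Clustered peaks were of ordinary strength. The deposited fold enrichment of a peak over the caller's background had a median of 8.07, 8.35 and 8.09 in the clustered regions in replicates 1, 2 and 3, and of 8.29, 8.39 and 8.35 in the 6253 other kept regions. The members were thus slightly lower in each replicate, by a small part of the spread between regions: the quartiles of the members were 6.34 and 10.7 in replicate 1. The order turned with other settings, since members had 11.1 and the others 10.6 where peaks had to reach a −log10 q of 10, and 8.82 and 8.74 without replicate 3 (means of replicate medians). Of the members, 83 (9.74%) were in the top 10% of all kept regions by mean fold enrichment, where the share over all kept regions is 10.0%. There were 10 members among the 100 strongest regions and 2 among the 10 strongest. In 170 of the 238 clusters no region passed the 90th percentile of 13.1.

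**Figure D3:**
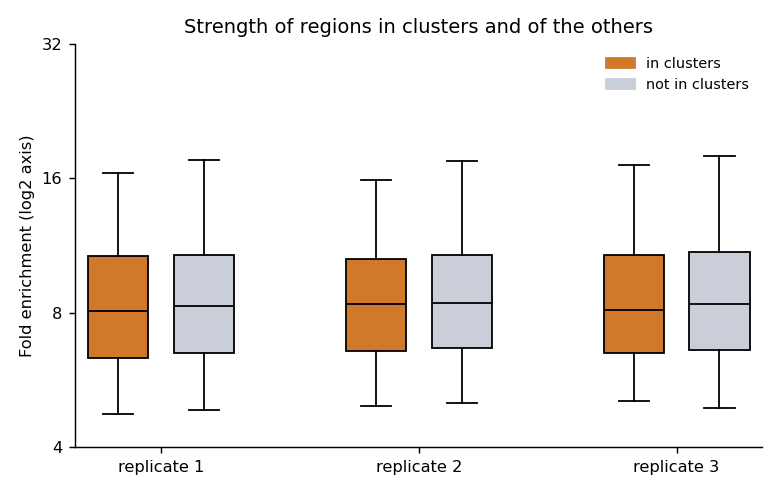
Fold enrichment of peaks (y axis, log2 axis) in clustered regions and in other kept regions, in each replicate (x axis). Boxes give the quartiles with the median as a line, and whiskers the 5th and 95th percentiles. The boxes overlap almost fully in each replicate, with medians of 8.07 and 8.29 in replicate 1.

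Peaks of all 3 replicates lay in 472 of the 852 members (55.4%, 95% Wilson interval 52.0 to 58.7), against 49.02% of the other kept regions and 49.8% of all kept regions. Since a region was kept for peaks of at least 2 replicates, this share is a description. It was 49.1% in regions that stood alone, 48.7% in runs of 2, 55.02% in clusters of 3, 50.5% in clusters of 4 or 5 and 64.5% in clusters of at least 6, so it did not climb evenly with size. Median mean fold enrichment over the same 5 classes was 8.16, 8.15, 8.09, 8.00 and 7.89. Replicate 1 had a peak in 90.02% of the members, replicate 2 in 79.1% and replicate 3 in 86.3%, in the order of the lengths of the 3 lists. The other kept regions had nearly the same shares in the same order, 87.05%, 76.5% and 85.5%.

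Few clusters were carried whole by every replicate. In 39 of the 238 clusters every region had peaks in all 3 replicates, in 18 none had, and 71 held at least 3 such regions. Counted by replicate, 194 clusters had at least 3 peaks in replicate 1, 146 in replicate 2 and 171 in replicate 3, and 88 had at least 3 in each. At NR2F2, a nuclear receptor of the caudal eminence, 5 of 7 regions had all 3 replicates, and the strongest had 18.3, 15.4 and 10.9. Without replicate 1, NR2F2 had 3 regions in clusters.

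Inside a cluster the regions varied in strength. The strongest region took a median of 41.2% of the summed mean fold enrichment in clusters of 3, which cannot be under 33.3%, and 22.9% in clusters of at least 6. The strongest region had a median of 1.73 times the fold enrichment of the weakest, 15 clusters reached 3 times, and 72 stayed under 1.5 times. The same region led in all 3 replicates in 98 clusters (41.2%), where a region with no peak in a replicate could not lead there and the 18 clusters without a region of all 3 replicates could not count. Over the 614 neighbouring pairs, mean fold enrichment of a region and of its neighbour had a Spearman correlation of -0.0025, a description over pairs that share libraries and regions. In regions with 3 peaks the values of 2 replicates correlated less tightly among the 472 members (Spearman 0.528 to 0.581) than among the 3065 others (0.590 to 0.606), and the median coefficient of variation was 20.5% against 19.4%.

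Clustered peaks were a little broader. Their median merged width was 367 bp against 334 bp in the other kept regions. A peak with several summits in at least 1 replicate was found in 87 members (10.2%, 95% Wilson interval 8.35 to 12.4), against 7.26% of the others and 7.61% of all kept regions. Regions of 1 cluster are not independent, so this interval and the others over regions cover counting error only.

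To ask whether regions in clusters are found again more often by a library that took no part in choosing them, clusters were rebuilt from each pair of replicates and the remaining replicate was used as the check. These rebuilt sets had 110 ± 18.4 clusters with 382 ± 67.3 regions (SD, n = 3). The replicate left out had a peak in 84.7% of the clustered and 79.4% of the other regions when it was replicate 1, in 73.4% and 67.7% when it was replicate 2, and in 83.7% and 77.0% when it was replicate 3. Recovery was 5.89 ± 0.70 percentage points higher in clusters (SD, n = 3) and higher in 3 of 3 replicates, with a two-sided exact sign-flip permutation p = 0.25, which is the smallest p that 3 replicates allow. With a step limit of 100 kb the difference was 1.41 points. At the 50-kb limit the test cannot decide, because this design allows no p under 0.25. The 3 values also share libraries, since each replicate helps to choose the regions in the other 2 cases. Their SD is therefore not a spread of independent values.

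The clustered regions of the rebuilt sets were not stronger, with a median fold enrichment of 8.61 against 8.75, but they were wider, 367 against 334 bp, and the part of width in the recovery was not tested. Divided by strength into 3 classes of equal size, 62.2% of the weakest clustered regions and 54.7% of the weakest other regions were recovered. The shares were 84.0% and 76.1% in the middle class and 96.7% and 93.2% in the strongest. Recovery differed more between the classes of strength than between clustered and other regions. In the strongest class the clustered and other shares were 95.4% and 94.2% with replicate 1 left out, 97.3% and 89.4% with replicate 2 left out and 97.5% and 95.8% with replicate 3 left out, so the gap there was mainly that of replicate 2.

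**Figure D4:**
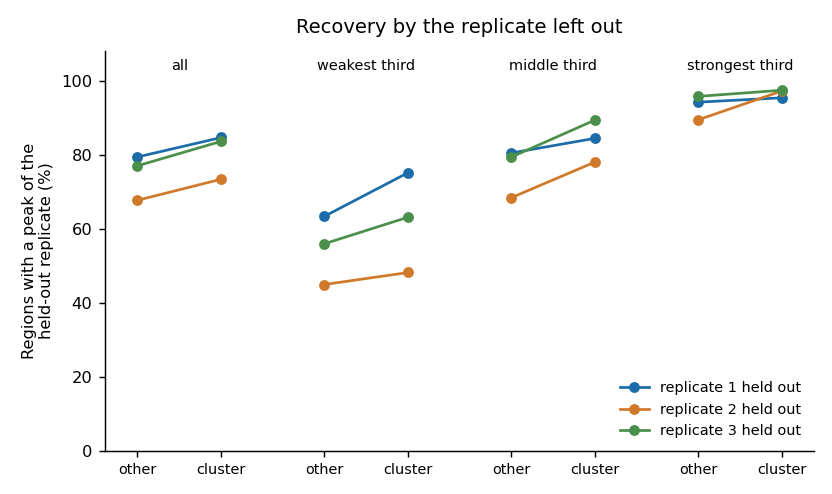
Share of regions, in percent (y axis), that had a peak in the replicate left out when regions and clusters were defined from the other replicates, for other regions and for clustered ones, over all regions and by 3 classes of fold enrichment, weakest to strongest (x axis). Lines join the shares of the same replicate left out. Over all regions every line rises towards the clusters, by 5.89 points on average, and the steps between the classes of strength are larger.

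Peaks found in only 1 replicate, which the rule set aside, were also more frequent inside the spans of the clusters. There were 145 of these inside, 63 of replicate 1, 38 of replicate 2 and 44 of replicate 3, and 85 clusters held at least 1. Per Mb there were 4.15 ± 1.12 inside and 0.975 ± 0.284 outside (SD, n = 3), a ratio of 4.38, 4.87 and 3.69 in the 3 replicates. A 1-replicate region inside a run bears on the rule, because one that gained a second peak would join or extend the cluster. Measured in windows of 25 kb on either side of regions, the density near members was 2.10 ± 0.17 times that near other kept regions, with 3.52 and 1.69 per Mb. The part of the local density of bound regions, which the rule itself makes high at the members, was not tested.

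With respect to genes, members lay more often inside genes and less often far from them than the other kept regions, by the counts that follow. Of the members, 477 (56.0%, 95% Wilson interval 52.6 to 59.3) had the summit inside a protein-coding gene, against 50.2% of the other kept regions and 50.9% of all kept regions. The share was 48.1% in single regions and 57.1% in runs of 2, which both count among the other kept regions. It was 56.4% in clusters of 3, 58.3% in clusters of 4 or 5 and 50.7% in clusters of at least 6. It was thus lowest in single regions and did not climb evenly with the size of the run. The difference depended on the setting. It was smaller with a step limit of 25 kb (52.6% against 50.8%) and at a −log10 q of at least 10 (51.6% against 51.2%). It was larger with regions of all 3 replicates (59.9% against 50.7%), with all annotated genes (72.3% against 63.9%) and without replicate 1 (57.4% against 50.8%). Only 62 members (7.28%, 5.72 to 9.22) lay within 1 kb of either end of a protein-coding gene, against 8.57% of the others and 8.42% over all. More than 100 kb from any protein-coding gene lay 129 members (15.1%, 12.9 to 17.7), against 21.6% of the others and 20.8% of all kept regions. Members outside genes were a median of 34.8 kb from the nearest one, the others 71.6 kb. The difference at gene ends is within the interval and changed sign with other settings: it was 8.98% at a step limit of 25 kb and 8.17% without replicate 3.

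By cluster, 86 (36.1%) lay with every region in the same gene, 9 had their regions in several genes, 71 were partly in a gene and 72 had no region in a gene. In 192 clusters all regions had the same nearest gene, in 38 there were 2 and in 8 at least 3. In all, 273 genes were nearest to a member, 1.37% of the 19970 protein-coding genes, while 4027 were nearest to some kept region. Of the 273, 191 had at least 3 member regions and 13 led more than 1 cluster. Genes near members were long: the median was 96.2 kb, against 79.6 kb for genes with kept regions outside clusters only and 24.2 kb for all genes. The stretch of the genome nearest to each had medians of 303, 213 and 57.8 kb. The part of length in which genes are named was not tested.

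In total 18 lists of developmental, signalling and control genes were read against the clusters. They held 378 distinct genes, of which 48 (12.7%) were nearest to a member, against the 1.37% of all protein-coding genes, and 213 (56.3%) were nearest to any kept region, against 20.2% of all. Among genes with a kept region, 22.5% of the list genes and 6.78% of all had at least 1 member. The lists were chosen with results of these data known, so the counts describe them and support nothing further.

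Neural progenitor genes had the largest share, 9 of 22 (40.9%), against 1.37% of all protein-coding genes. They were TLE4, MSI2 (an RNA-binding protein of stem cells), NFIA, POU3F3, HES1 and the zinc finger genes ZIC1, ZIC2, ZIC4 and ZIC5. A kept region was nearest to 18 of the 22 (81.8%), against 20.2% of all. ZIC1 and ZIC4 shared a cluster, and HES1 had 1 region in a cluster with CPN2. None of the 3 NFIA regions, 164 to 210 kb from the gene, had peaks in all 3 replicates. The cluster of ZIC2 and ZIC5 had 3 regions in all 3 replicates, the strongest with 19.8, 15.7 and 16.2. Among 12 genes of the caudal and dorsal eminence, 4 (33.3%) had members (NR2F2, PAX6, SP8 and NR2F1), and 10 (83.3%) had a kept region. NR2F1 had no region in a cluster when any of the 3 replicates was left out. Of 24 genes of the pallium 7 (29.2%) had members and 13 (54.2%) had a kept region. The 7 were EMX2 with 11 and GLI3 with 9 regions, then PAX6, LHX2 and DBX1 with 3 each and NEUROG1 and FEZF2 with 2 each. PAX6, which marks the pallium and the dorsal LGE, shared a cluster of 6 over 52.0 kb at chr11:31763291-31815871 with its neighbour ELP4, and its strongest region, inside PAX6, had 13.7, 25.5 and 17.1.

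Of 14 SOX genes 4 (28.6%) had members, SOX2 with 14, SOX5 with 8, SOX1 with 4 and SOX6, against 1.37% of all protein-coding genes. A kept region was nearest to 10 of the 14 (71.4%), against 20.2% of all. SOX5 regions were all inside the gene, and the strongest had 21.4, 12.8 and 21.5. Of 21 genes of ventral telencephalon progenitors 5 (23.8%) had members: GSX2, MEIS1, SP8, VAX1 and SIX3. A kept region was nearest to 14 of the 21 (66.7%). MEIS1, a homeobox partner of other homeodomain factors, had 4 with the strongest at 10.9, 18.2 and 19.0. SP8, a zinc finger factor of the dorsal LGE, had 3 with the strongest, 6.83 kb from the gene, at 15.1, 16.5 and 11.8. The GSX2 relative GSX1 had 1 kept region and no member, DLX1, DLX2, DLX5 and DLX6, which act downstream in the ganglionic eminences, had no kept region, NKX2-1 had 1 and MEIS2 had 4, none of them in a cluster. Dense clusters were therefore not a feature of every ventral forebrain gene.

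Among 23 genes of the diencephalon and eye 4 (17.4%) had members (OTX2, TCF7L2, FEZF1 and LHX5). Among 21 of the midbrain to the spinal cord 2 (9.52%) had members (NKX6-1 and LMX1A). A kept region was nearest to 69.6% and 57.1% of the genes of these lists. NKX6-1, a ventral spinal cord homeobox gene, had 3 regions, the strongest 84.1 kb away with 14.6, 15.5 and 11.8. Of 21 genes of GABAergic and striatal neurons 2 (9.52%) had members, FOXP1 with 4 and RXRG, against 1.37% of all protein-coding genes. A kept region was nearest to 13 of the 21 (61.9%), against 20.2% of all.

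In the signalling lists the shares were lower than for the progenitor list, and the share over all protein-coding genes was 1.37%. The Notch pathway had 3 of 25, which were TLE4, the ligand JAG1 and the target HES1. JAG1 had 4 regions, the strongest with 17.4, 12.8 and 17.7, while HES1 had 1 weak region 66.7 kb away at 5.02, 5.33 and 6.54. The Hedgehog pathway had 1 of 14 (7.14%), GLI3. The Wnt pathway had 3 of 25, the receptor FZD8 and the transcription factors TCF7L1 and TCF7L2. FZD8 had its strongest at 22.8, 15.4 and 14.6 and TCF7L1 at 11.1, 19.5 and 13.2. FGF, BMP and retinoid signalling had 3 of 27, the receptor FGFR1 and the FGF inhibitors SPRY4 and DUSP6, with FGFR1 at 19.0, 20.02 and 20.8 (19.9 ± 0.88, SD, n = 3) as the strongest. Axon guidance and adhesion genes had 5 of 40 (EFNA5, SEMA6A, ERBB4, SEMA3A and ROBO3) although 36 of the 40 had a kept region. The corepressor list had 1 of 24 (4.17%), TLE4.

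The control lists held few members. Of 20 liver and 20 blood genes none was nearest to a member, where the share over all protein-coding genes is only 1.37%. A list of 20 is too short to tell 0% from that share. A kept region was nearest to 1 (5%) and 3 (15%) of them, against 20.2% of all genes. Of 24 ribosomal protein genes RPS14 had 1 member (4.17%), with no peak in replicate 1 and 5.60 and 5.41 in the others. Of these 24, 4 (16.7%) had a kept region. Of 16 pluripotency genes 1 (6.25%), LIN28B, had members, 3 of them, the strongest with 7.82, 11.2 and 9.44. Of these 16, 6 (37.5%) had a kept region, more than the 20.2% of all genes. SOX2, counted here with the SOX genes, is expressed in pluripotent cells too.

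**Figure D5:**
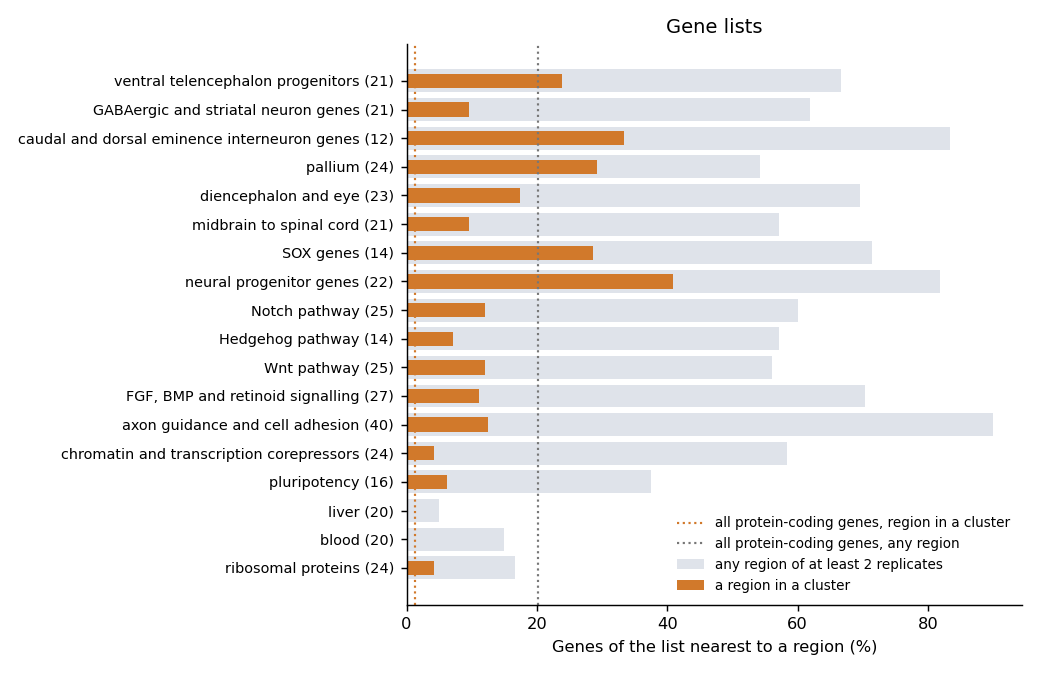
Share of the genes of each list, in percent (x axis), that are nearest to any region of at least 2 replicates (grey bars) and to a region in a cluster (orange bars), with the number of genes of the list in brackets. Dotted lines give the shares over all 19970 protein-coding genes, 20.2% and 1.37%. The neural progenitor list reaches 40.9% for clusters and the liver and blood lists 0%.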

How the data were processed

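FLAG ChIP-seq peak lists of the 3 replicates were used. Per the submitters' processing notes the authors worked with Trim Galore, Bowtie2, SAMtools, MACS3 and deepTools on hg38, with versions and settings not given in the sources used here. Each deposited list gives, per peak, the position and summit offset, the fold enrichment over the caller's background as a ratio, −log10 p and −log10 q (none under 3) and an integer score, which was not used. Values are the authors' and per peak, and read depth is unknown.

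From these, regions were merged, kept and clustered as stated above, and the median summit over replicates gave each region its position. Peaks on other contigs were left out. A region's fold enrichment is the mean over replicates with a peak, taking the strongest peak of each. Genes came from the RefSeq table of GRCh38.p14 (19970 protein-coding genes, gene ends only, no exons) and promoter windows from RefSeq of the same build. No genome was used, so motifs were sought in promoter windows only. Members and gene lists were chosen with earlier results of these data known. Clusters were named by rule: the 15 with most regions, the 5 densest of at least 4 regions, the 5 longest, the 5 of highest median, the clusters of the 10 strongest members, and 15 fixed genes of forebrain patterning with GSX2; up to 3 genes by member count were named per list, and others described, promoters included, were chosen after their values were seen. One cluster that the rule names is not reported here. The only test was the exact sign-flip permutation over replicates; intervals are Wilson at 95%. Merging and cluster calling were tested on simulated peaks, and the other measures were not. The computations used Python 3.11.15, pandas 2.3.3, numpy 2.4.6 and scipy 1.17.1.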

Additional observations from a re-analysis of the deposited data

How the results depend on the processing

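No paired analysis was possible because the inputs that share replicate numbers with the ChIP libraries have no values here. For steps of at most 25 kb, at most 100 kb, at least 4 regions, regions of all 3 replicates and −log10 q of at least 10, in that order, there were 116, 497, 72, 68 and 45 clusters of 401, 1868, 354, 232 and 155 regions; list genes near members were 28, 83, 25, 19 and 13 instead of 48. Clusters inside 1 gene were, in the same order, 42 of 116, 129 of 497, 22 of 72, 26 of 68 and 11 of 45, instead of 86 of 238. The 1-replicate density ratio of 4.31 was 7.52, 2.69, 5.35 and 6.76 in the first 4, 4.95 with summit windows of 100 bp on either side, 3.03 with spans widened by 50 kb and 2.10 in 25-kb windows. Members inside genes were 52.6% at 25 kb, 59.9% with all 3 replicates, 51.6% at the q limit and 72.3% with all annotated genes; members of all 3 replicates were 51.3% at 100 kb. The median fold of 8.17 (mean of replicate medians) was 9.21 with all 3 replicates and 11.1 at the q limit (10.6 in other regions, so the order turned, as it did without replicate 3). The difference at gene ends turned at 25 kb (8.98%), at the q limit (7.10%), within 5 kb (21.4%) and without replicate 3 (8.17%), and with all annotated genes the share was 12.7%. Without 1 replicate, clusters ranged from 97 to 131, regions from 333 to 459, the median fold from 8.28 to 8.82, clusters inside 1 gene from 33 to 48, list genes from 25 to 29, the density ratio from 4.94 to 6.21, members inside genes from 54.9% to 57.4% and those at gene ends from 6.91% to 8.17%. Of the values of single clusters and genes, 96 moved and 194 did not. The held-out difference ran from 1.41 points (100 kb) to 7.91 points. The classes of strength and the 25-kb windows were chosen after seeing the data. Depth limits every share: a region missing from a list may lie below the caller's threshold.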
